A study of Caenorhabditis elegans with 8 samples.

Results

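The genes described here code for ion channels and transmitter receptors of Caenorhabditis elegans, and the question is which of them have a binding peak of DAF-16, the worm's only FOXO factor. They were taken by name: every gene whose symbol starts with twk-, acr-, lgc-, glr-, gar-, gbb-, ser-, dop-, kvs-, kqt- or clh- (11 name stems) and that was assigned a peak in either list. This gave 12 of the 6859 peaks in daf-2(-) and 8 of the 5396 peaks in WT, or 20 rows. They belong to 15 of the 6391 genes with a peak in either list, 12 of 5621 genes in daf-2(-) and 8 of 4641 genes in WT. All 15 were found under the same symbol in the RefSeq gene table.

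DAF-16 was mapped by chromatin immunoprecipitation and sequencing (ChIP-seq) with an antibody raised against the endogenous protein. Both lists come from mixed-stage, whole-worm cultures fed E. coli OP50 at 20 °C. The daf-2(-) strain carries e1370 of daf-2, the gene of the insulin/IGF-1-like receptor, and WT is the N2 Bristol strain. 2 further strains, daf-16(mgDf50) and daf-16(mgDf50);daf-2(e1370), lack DAF-16, and peaks that also occur in them are described as left out of the lists. In whole worms, binding in many cells at a low level and binding in few cells cannot be told apart.

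In the worm, insulin-like signalling keeps DAF-16 in the cytoplasm, and a weak receptor lets it enter the nucleus of many cell types, neurons included. Potassium channels set the resting potential of neurons and muscles and return it after excitation. Ligand-gated channels open within milliseconds when a transmitter binds, while G protein-coupled receptors for acetylcholine, GABA and the biogenic amines act more slowly through second messengers and tune locomotion, feeding and egg laying.

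Each strain had 1 ChIP library, made from pooled chromatin, so no difference between the strains can be set against a spread between replicates, and no test was possible. The tags inside peaks summed to 1051563 in daf-2(-) and 1315194 in WT. The median peak held 106 tags in daf-2(-) and 184 tags in WT. The total reads of a library were not used here, though the study lists a summary of its sequencing and mapping. Intervals below are 95% intervals. Those of tags and of height ratios cover counting error only. Those of shares and medians treat the genes or peaks as independent draws, which they are not, and say nothing of a spread between replicates.

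Most channel and receptor genes were assigned no DAF-16 peak in either strain. A peak over such a gene may be assigned to another gene, coding or non-coding. That was looked at only for the 15 genes with a peak, not for the other 148. The RefSeq table holds 163 genes of these name stems. Of these, 12 had a peak in daf-2(-) (7.36%, exact binomial interval 3.86 to 12.5) and 8 had one in WT (4.91%, 2.14 to 9.44). Over all 19983 protein-coding genes of the table the share was 18.0% in daf-2(-) and 15.0% in WT. A peak in at least 1 list was found for 15 channel and receptor genes (9.20%, interval 5.24 to 14.7) and for 20.0% of all protein-coding genes. The share for the channel and receptor genes was therefore below that of all genes in both lists. No test was made of this, and the genes of a list share families and neighbourhoods. With peaks from 2.5 kb upstream to 300 bp downstream of the transcription start site (TSS) only, 7 genes (4.29%) were left in daf-2(-) and 6 (3.68%) in WT, beside 15.3% and 12.5% of all protein-coding genes.

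**Figure D1:**
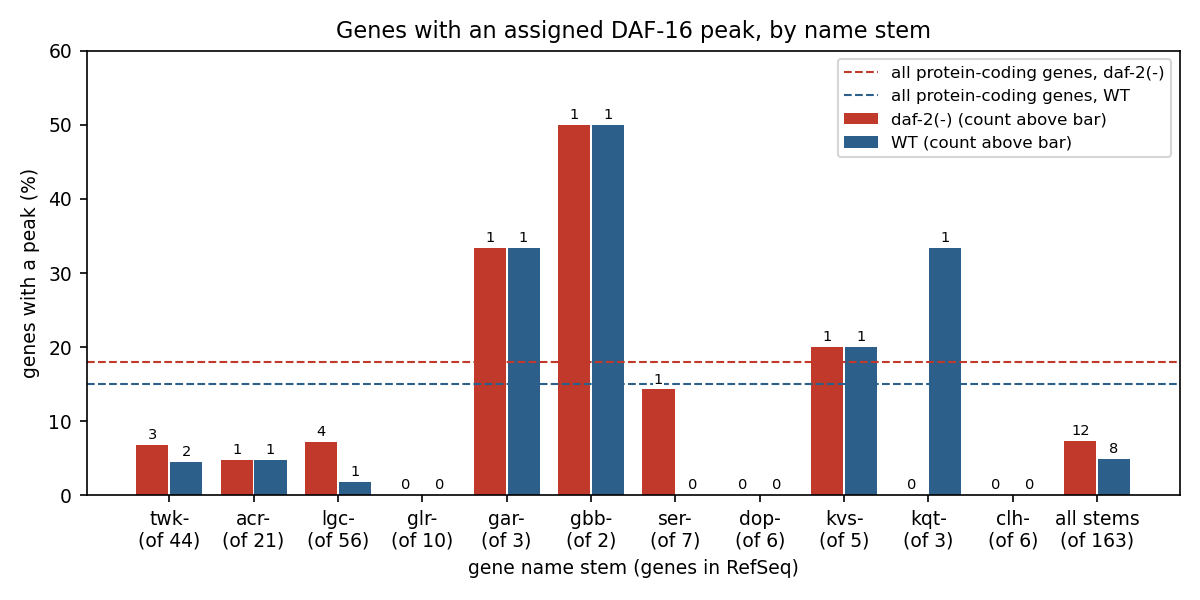
Percent of the genes of each name stem that had an assigned DAF-16 peak, daf-2(-) in red and WT in blue, with the number of genes above each bar and the genes in RefSeq under each stem. Dashed lines mark all protein-coding genes, 18.0% in daf-2(-) and 15.0% in WT. The 163 genes together lie below both lines, and the stems glr-, dop- and clh- have no gene with a peak. Stems above the lines hold at most 5 genes.

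Among the 11 stems, the 8 with a peak were all 3 potassium channel stems, both stems of transmitter-gated channels of the cysteine-loop type and all stems of G protein-coupled receptors except dop-. Among potassium channel genes 4 of 52 had a peak in daf-2(-) and 4 in WT, 6 in either list (11.5%). Among ligand-gated channel subunits the counts were 5 of 87 in daf-2(-) and 2 in WT, 5 in either list (5.75%). Among G protein-coupled receptors they were 3 of 18 in daf-2(-) and 2 in WT, 4 in either list (22.2%). Over all protein-coding genes the shares were 18.0% in daf-2(-), 15.0% in WT and 20.0% in either list. No peak was assigned to any of the 10 glr- genes (ionotropic glutamate receptor subunits such as glr-1 of the command interneurons), the 6 dop- genes (dopamine receptors, dop-1 to dop-3 among them) or the 6 clh- genes (CLC-type chloride channels). The exact binomial upper limits were 30.8% for glr- and 45.9% each for dop- and clh-, so their intervals include the shares of all genes. Genes without an assigned peak also included acr-16, a subunit of the nicotine-sensitive receptor of body wall muscle, acr-2 of the cholinergic motor neurons, twk-18, a muscle potassium channel, ser-4, a serotonin receptor, and lgc-55, a tyramine-gated chloride channel.

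Of the potassium channel genes, twk-43 had a peak over its start in both strains. The twk- genes code for tandem-pore leak channels. The height of a peak, which is the pileup of tags at its summit, was 53 for twk-43 (WBGene00006693) in daf-2(-), against 100 in WT. Its fold enrichment, the summit over the local background as called by the authors, was 7.27 in daf-2(-) and 12.8 in WT. The peak held 103 tags in daf-2(-) (exact Poisson interval 84.1 to 125) and 166 tags in WT (142 to 193). It ran over chromosome V, 13345703 to 13346571 in daf-2(-) and 13345660 to 13346566 in WT (WS230), with its centre 141 bp and 165 bp upstream of the TSS. In height it stood above 45.6% of all daf-2(-) peaks and above 57.5% of all WT peaks, so it was a middling peak in either list.

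The other 3 twk- genes with a peak each had it in 1 list. In daf-2(-), twk-5 (WBGene00006660, chromosome II, 11485073 to 11485826) had a peak of height 27, 68 tags and fold enrichment 3.40, with its centre 90 bp upstream of the TSS. Only 1.59% of the daf-2(-) peaks were lower. The same interval overlaps the gene model of ttr-18, a transthyretin-related gene with a peak of its own in WT, whose summit lay 1497 bp from that of twk-5. In daf-2(-), twk-42 (WBGene00006692, chromosome V, 17728475 to 17729356) had a peak of height 34 and fold enrichment 3.83 inside its gene model, 1465 bp downstream of the TSS. In WT, twk-24 (WBGene00006677, chromosome V, 12269102 to 12270013) had a peak of height 67, 130 tags and fold enrichment 7.29, centred 8 bp upstream of the TSS. The nearest daf-2(-) summit lay 18.3 kb away. The remaining 40 of 44 twk- genes had no peak.

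Both other potassium channel stems had 1 gene each. kvs-5 (WBGene00021948), a voltage-gated potassium channel gene, had a low peak in both lists, with height 35 in daf-2(-) and 42 in WT and fold enrichment 4.80 in daf-2(-) and 5.37 in WT. Of all daf-2(-) peaks 10.6% were lower than it, and of all WT peaks 1.06%, so the kvs-5 peak was among the lowest of the WT list. The interval was chromosome IV, 740517 to 741287 in daf-2(-) and 740512 to 741215 in WT, centred 1181 bp and 1219 bp upstream of the TSS. kqt-2 (WBGene00002234), of the KCNQ type of potassium channels, had a peak in WT alone, on chromosome X from 8245834 to 8247552. At 1719 bp it was the longest of the 20 peaks, and it was low (height 54, fold enrichment 5.64) though it held 241 tags. Its centre lay 324 bp upstream of the TSS and its summit 74 bp downstream.

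Among the ligand-gated channel genes, lgc-12 (WBGene00020048) had the highest peak of the whole set in each strain. The lgc- genes code for cysteine-loop channel subunits, and for lgc-12 no ligand is named here. Its height was 81 in daf-2(-), against 143 in WT, with 128 tags in daf-2(-) (interval 107 to 152) and 242 tags in WT (212 to 274). Fold enrichment was 9.77 in daf-2(-) and 13.7 in WT, above 69.1% of the daf-2(-) list and above 69.2% of the WT list. Its rank by fold enrichment was thus alike in both lists. The peak lay on chromosome III, 7559742 to 7560588 in daf-2(-) and 7559602 to 7560589 in WT, and was centred 2007 bp and 2076 bp upstream of the TSS.

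acr-23 (WBGene00000062), a subunit of a betaine-gated cation channel, was the only acr- gene of 21 with a peak. Its height was 35 in daf-2(-), against 74 in WT, with fold enrichment 4.80 in daf-2(-) and 9.46 in WT. The count was 60 tags in daf-2(-) (interval 45.8 to 77.2) and 116 tags in WT (95.9 to 139). In daf-2(-) the peak was 561 bp long, the shortest of the set, and 96.6% of the peaks of that list were longer. It lay on chromosome V, 3660303 to 3660863 in daf-2(-) and 3660234 to 3660982 in WT, more than 1 kb upstream of the TSS (1084 bp in daf-2(-), 1109 bp in WT).

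The other 3 lgc- genes with a peak had it in daf-2(-) alone. lgc-53 (WBGene00020657), a subunit of a dopamine-gated anion channel, had a peak of height 54 and fold enrichment 6.82 on chromosome X, 16712551 to 16713333, centred 404 bp inside the gene model. lgc-34 (WBGene00020836) had a peak of height 36 and fold enrichment 4.94 on chromosome II, 526157 to 526848, centred 89 bp upstream of the TSS. The nearest WT summit was 75011 bp away, the farthest of any peak of the set. lgc-26 (WBGene00021981) had a peak of height 71 and 218 tags on chromosome V, 264751 to 265979, centred 2907 bp upstream of the TSS, with a fold enrichment of 3.48. Height divided by fold enrichment gives the local background that the peak caller used, and for lgc-26 this was 20.4 tags, higher than in 99.96% of the daf-2(-) peaks and outside the range of 7.29 to 8.88 of the other 11. The tall summit of lgc-26 thus stood over a high local background, and its fold enrichment was above that of only 1.90% of the list. Of 56 lgc- genes, 52 had no peak.

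The G protein-coupled receptor genes included both GABA-B subunits, each with a peak in a different strain. gbb-1 and gbb-2 code for the subunits that together form the GABA-B receptor. In daf-2(-), gbb-2 (WBGene00022675, chromosome IV, 4506427 to 4507243) had a peak of height 46, 83 tags and fold enrichment 6.31, centred 127 bp upstream of the TSS, and WT had none listed. In WT, gbb-1 (WBGene00021528, chromosome X, 2960374 to 2961216) had a peak of height 72, 115 tags and fold enrichment 9.21, centred 2861 bp downstream of the TSS inside the gene model, and daf-2(-) had none listed. The gbb-1 model also held a peak in both strains that was assigned to the microRNA gene mir-34, with height 71 in daf-2(-) and 127 in WT and fold enrichment 8.0 in daf-2(-) and 13.0 in WT. So the body of gbb-1 was bound in daf-2(-) too, 5.64 kb from the WT summit assigned to gbb-1, and it counts as without a daf-2(-) peak only because the nearest TSS is that of mir-34.

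gar-3 (WBGene00001519), a muscarinic acetylcholine receptor that acts in pharyngeal and body wall muscle, had a peak inside its gene model in both strains. Its height was 62 in daf-2(-), against 82 in WT, with fold enrichment 7.94 in daf-2(-) and 9.79 in WT. The summits lay 15 bp apart, and the centre was 2770 bp downstream of the TSS in daf-2(-) and 2783 bp in WT (chromosome V, 14576537 to 14577360 in daf-2(-) and 14576498 to 14577374 in WT). gar-1 and gar-2 had no peak. ser-1 (WBGene00004776), a serotonin receptor that takes part in egg laying, had a peak in daf-2(-) alone, the lowest of the set by height and by fold enrichment. It had height 26, 75 tags and fold enrichment 3.24 on chromosome X, 16583059 to 16583888, centred 1467 bp inside the gene model. By fold enrichment 0.74% of the daf-2(-) peaks were weaker. The other 6 ser- genes, which code for serotonin, tyramine and octopamine receptors, had no peak.

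**Figure D2:**
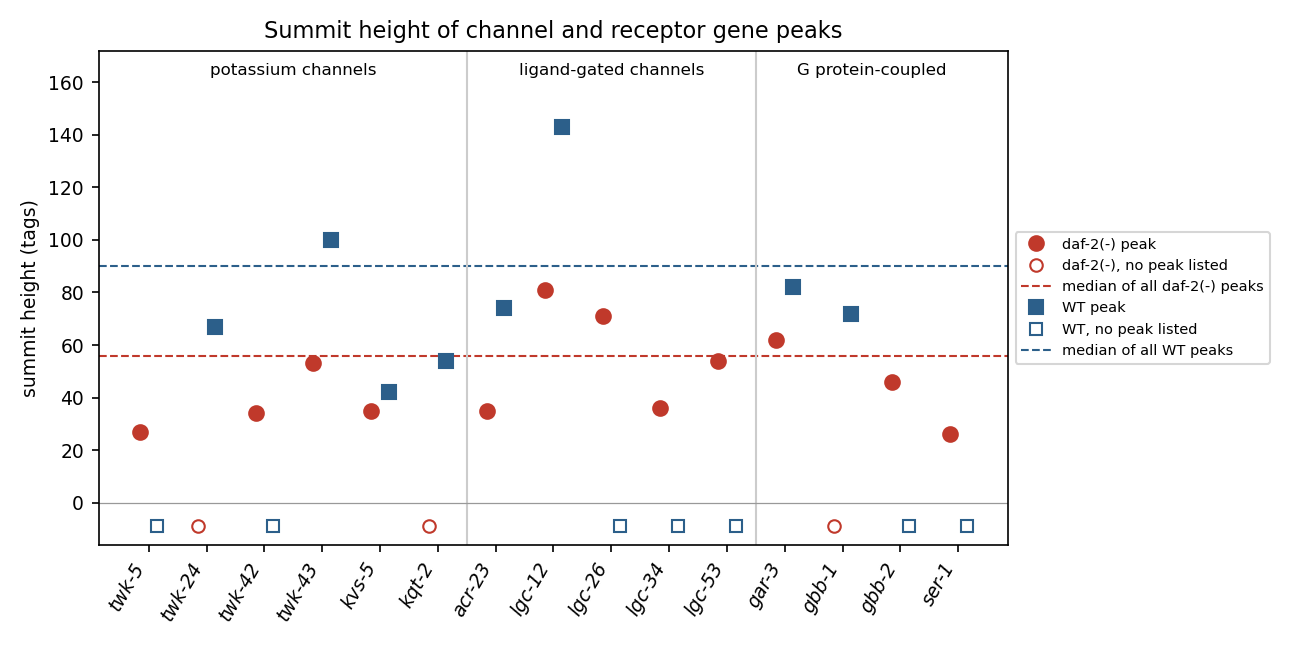
Summit height in tags for each of the 15 genes, grouped by kind, with daf-2(-) as red circles left of WT as blue squares. Open symbols under the zero line mark a gene with no peak in that list, and dashed lines mark the median of all peaks, 56 tags in daf-2(-) and 90 tags in WT. Values ran from 26 to 81 in daf-2(-) and from 42 to 143 in WT, and lgc-12 was highest in both.

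The median peak of the set was lower than the median peak of its list in both strains. Median height was 41 (order-statistic interval 34 to 62) for the 12 daf-2(-) peaks and 73 (42 to 143) for the 8 WT peaks, beside 56 and 90 over all peaks. Median fold enrichment was 4.87 (3.48 to 7.27) in daf-2(-), with 7.24 over that list, and 9.34 (5.37 to 13.7) in WT, with 10.5 over that list. Both intervals for WT and the interval for height in daf-2(-) include the median of their whole list, while that for fold enrichment in daf-2(-) reaches 7.27 and so only just does. Others in daf-2(-) did not include it. Median tags per peak were 83.5 (68 to 103) for the 12 daf-2(-) peaks, against 106 over that list, and with the tallest peak of each gene only, their median fold enrichment was 63.4% of that of the list (45.3 to 94.7). Lengths were close to those of all peaks, with medians of 820.5 bp in daf-2(-) and 892 bp in WT beside 835 bp and 960.5 bp. No peak of the set reached a fold enrichment of 10 in daf-2(-), and 2 did in WT, those of lgc-12 and twk-43.

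Peaks of the set were shared between the strains at 5 genes. Of the peaks in daf-2(-), 5 of 12 overlapped a WT peak (41.7%, interval 15.2 to 72.3), beside 70.6% of all daf-2(-) peaks. Of the peaks in WT, 5 of 8 overlapped a daf-2(-) peak (62.5%, interval 24.5 to 91.5), beside 87.4% of all WT peaks. The share was below that of its list in both strains, and both intervals include the value of the whole list. By gene, 5 of the 15 were bound in both strains (33.3%, interval 11.8 to 61.6), namely twk-43, kvs-5, lgc-12, acr-23 and gar-3. Of all bound protein-coding genes 65.0% were, a value that this interval does not include, and the difference was not tested. By assigned gene, the 7 bound in daf-2(-) only were twk-5, twk-42, lgc-26, lgc-34, lgc-53, gbb-2 and ser-1. The 3 bound in WT only were twk-24, kqt-2 and gbb-1. None of the 10 peaks assigned to these genes overlapped a peak of the other list, whatever its gene. The gbb-1 model did hold a daf-2(-) peak elsewhere, the one assigned to mir-34, and it is not counted here.

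The peaks found in daf-2(-) only lay mostly near the lower end of that list. Their median height was 36 (range 26 to 71), and that of all 2015 daf-2(-)-only peaks was 42. The daf-2(-) list also gives the score of the peak caller, minus 10 times the base-10 logarithm of its p-value, which starts at 50. The score was under 60 for 5 of the 7, those of twk-5 (54.3), lgc-26 (54.7), lgc-34 (55.1), twk-42 (55.3) and ser-1 (57.6), and for 22.3% of all daf-2(-)-only peaks. Only gbb-2 (102) and lgc-53 (78.0) stood higher, and the 5 shared peaks ran from 85.2 for acr-23 to 243 for lgc-12. With a score of at least 60, a limit set with the scores in view, 7 genes were left in daf-2(-) (4.29% of 163, beside 16.6% of all protein-coding genes), and 5 of their 7 peaks were shared (71.4%, beside 74.9%). The 3 WT-only peaks had a median height of 67 (range 54 to 72), and all 679 WT-only peaks had 61. A peak that is missing from a list may lie under its threshold, and the level of DAF-16 at these positions in the other strain was not measured here.

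Where both strains had a peak, its height, not scaled to depth, was lower in daf-2(-) at all 5 genes. Over all 4717 pairs of overlapping peaks 93.4% were lower in daf-2(-), so this direction is that of the lists as a whole. The log2 ratio of height, daf-2(-) over WT, was -1.08 for acr-23 (interval -1.70 to -0.48), -0.92 for twk-43 (-1.42 to -0.42), -0.82 for lgc-12 (-1.23 to -0.42), -0.40 for gar-3 (-0.90 to 0.09) and -0.26 for kvs-5 (-0.95 to 0.42), with intervals that treat each height as a count. The intervals of gar-3 and kvs-5 include no difference. Their median was -0.82, and that of all pairs was -0.53. Of all pairs, 6.91% had a lower ratio than acr-23 and 77.4% a lower one than kvs-5. The intervals of the 5 genes overlap, so an order among them cannot be given. Heights are not scaled to the depth of the libraries, and depth and occupancy cannot be told apart in these ratios. Fold enrichment, the height over the background used by the peak caller, gave a median of -0.49 for the 5 and -0.39 for all pairs. The log2 ratio of that background was -0.10 for acr-23, twk-43, gar-3 and kvs-5, and -0.33 for lgc-12. By height and by fold enrichment the median gene was lgc-12, so the step from -0.82 to -0.49 is that of lgc-12 alone. Tags per peak gave medians of -0.69 for the 5 and -0.56 for all pairs.

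**Figure D3:**
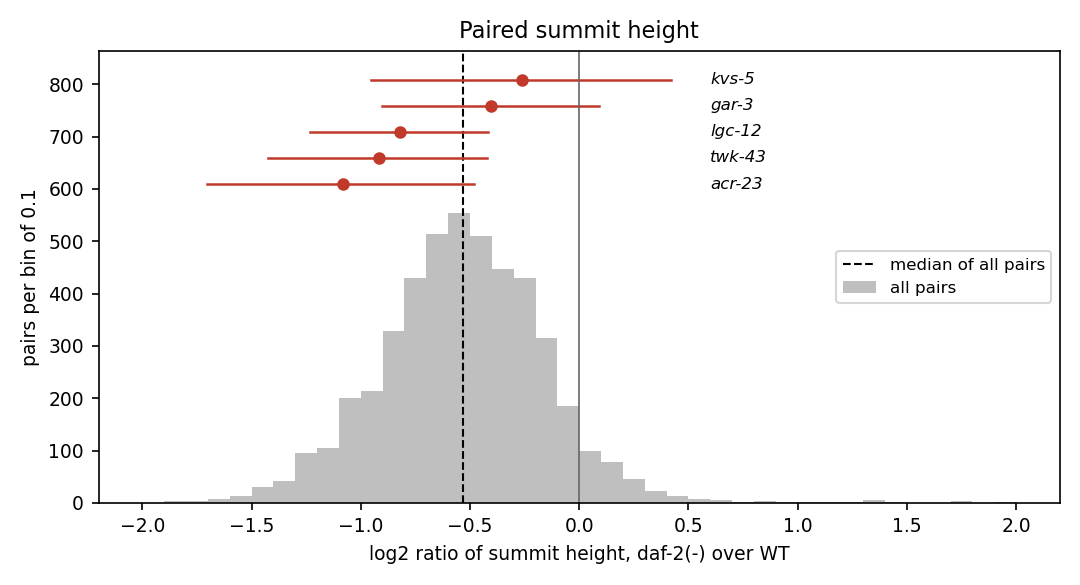
Log2 ratio of summit height, daf-2(-) over WT, for all 4717 pairs of overlapping peaks (gray bars, pairs per bin of 0.1 log2 units) and for the 5 channel and receptor genes bound in both strains (red points with 95% counting intervals, placed above the bars for legibility). The dashed line is the median of all pairs (-0.53). All 5 points lie left of 0, and the intervals of gar-3 and kvs-5 cross it.

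Shared peaks kept their place. Summits of the 5 pairs lay 15 bp apart for acr-23 and gar-3, 55 bp for lgc-12, 60 bp for kvs-5 and 68 bp for twk-43. The median was 55 bp (range 15 to 68), and 37 bp over all pairs. The overlap covered at least 99.3% of the shorter peak in each pair.

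By assigned gene, each had its peak at 1 place only, apart from the peaks over gbb-1 and kvs-5 that were assigned to non-coding genes. None of the 12 genes in daf-2(-) and none of the 8 in WT had more than 1 peak (exact binomial upper limits 26.5% and 36.9%), whereas 16.1% of all bound genes in daf-2(-) and 12.5% in WT had. The peaks were spread over distances from 8 bp to 2907 bp. Of the peaks, 4 of 12 in daf-2(-) and 3 of 8 in WT had their centre in the 0.5 kb before the TSS, beside 36.8% of all daf-2(-) peaks and 36.3% of all WT peaks. They were those of twk-5, twk-43, lgc-34 and gbb-2 in daf-2(-) and those of twk-24, twk-43 and kqt-2 in WT. When the summit replaced the centre, 1 of 8 was left in WT (12.5%), since the summits of twk-24 and kqt-2 lay 13 bp and 74 bp downstream of the TSS. Peaks upstream of the gene at any distance were 8 of 12 in daf-2(-) and 6 of 8 in WT, beside 67.2% and 65.3% of all peaks. The peaks of lgc-12, kvs-5, acr-23 and, in daf-2(-) only, lgc-26 lay more than 1 kb upstream, which was the case for 21.0% of all daf-2(-) peaks and 19.3% of all WT peaks. The other peaks, those of gar-3, twk-42, ser-1, lgc-53 and gbb-1, lay inside the gene model. Exons and introns were not told apart here. On chromosome X were 2 of 12 peaks in daf-2(-) (ser-1 and lgc-53) and 2 of 8 in WT (gbb-1 and kqt-2), beside 25.7% of all daf-2(-) peaks and 26.5% of all WT peaks. By assigned gene, none of the 5 bound in both strains was on chromosome X, though the mir-34 peak inside gbb-1 was there in both.

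**Figure D4:**
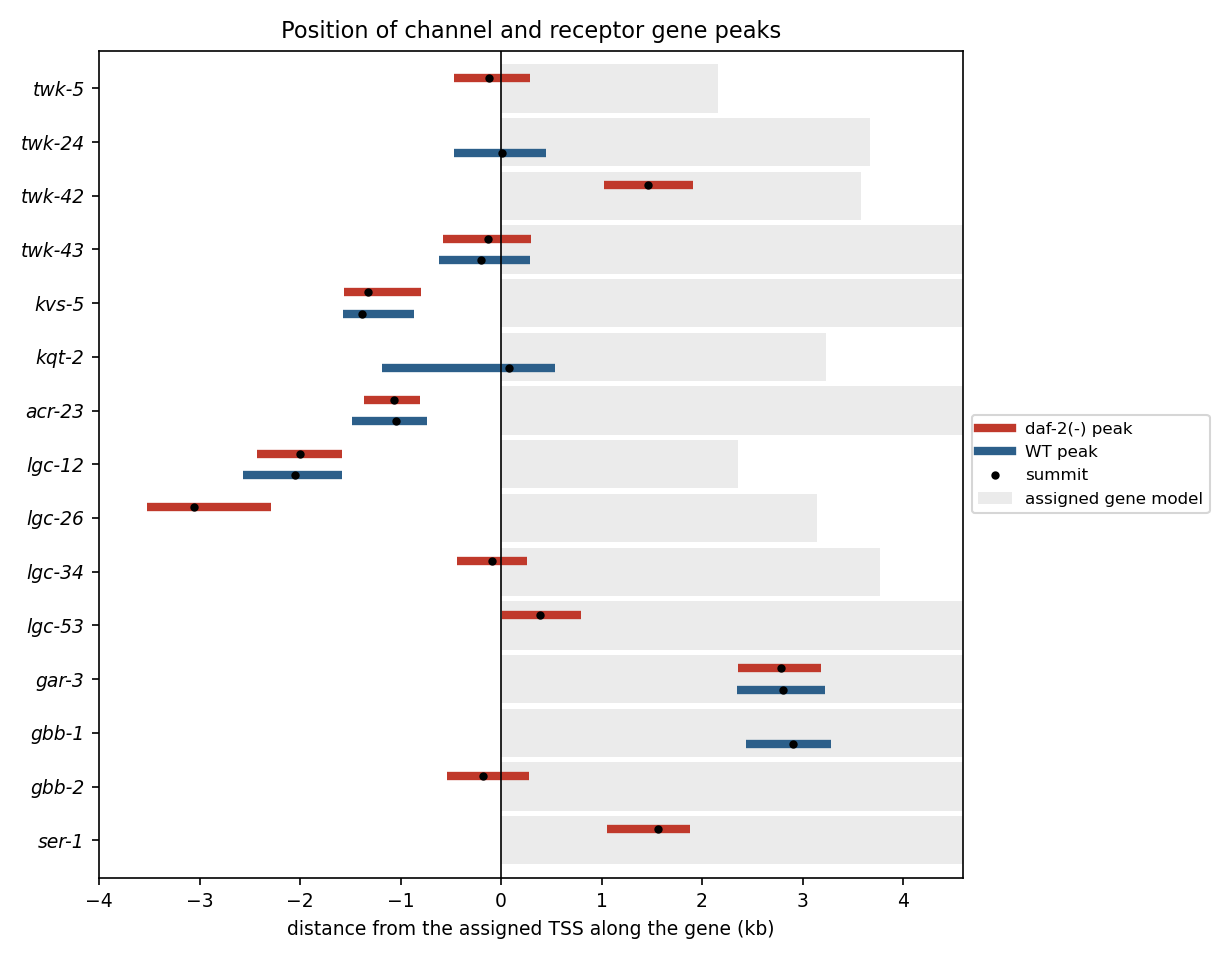
Extent of each peak along its gene, in kb from the assigned TSS at 0, with daf-2(-) in red above WT in blue, the summit as a black dot and the assigned gene model in gray (cut at the right edge where longer). Peaks of the same gene in both strains lie over each other for all 5 shared genes. Peaks within 0.5 kb of the start, farther upstream and inside the gene all occur, from 2907 bp upstream for lgc-26 to 2861 bp downstream for gbb-1.

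1 more peak lay over a gene of the set without being assigned to it. In daf-2(-) only, a peak of height 35 and fold enrichment 4.77 inside the kvs-5 model was assigned to the non-coding RNA gene Y55F3C.14. Together with that of mir-34 inside gbb-1, such peaks were found at 2 of the 15 genes. No other peak that overlapped a model of the 15 genes was assigned elsewhere. The models of the other 148 genes were not searched for such peaks.

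Genes of the same or related functions under other names were taken from 7 lists with 127 genes, of which 125 were in the RefSeq table. Not all are channels or receptors. The lists also hold genes of acetylcholine receptor assembly and clustering (10) and of transmitter synthesis, loading and uptake (21). A peak was assigned to 23 of them in daf-2(-) (18.4%) and to 14 in WT (11.2%), all 14 also bound in daf-2(-). Against the 18.0% and 15.0% of all protein-coding genes, these shares lay nearer to the background than those of the 163 genes (7.36% and 4.91%). The strongest were shared: unc-63, a subunit of the levamisole-sensitive acetylcholine receptor, had height 120 in daf-2(-) and 177 in WT, ace-2, an acetylcholinesterase, 100 in daf-2(-) and 160 in WT, and ric-3, a chaperone of acetylcholine receptor assembly, 95 in daf-2(-) and 136 in WT. Of the 14 other acetylcholine receptor subunits only lev-1 and unc-63 were bound, in both strains. Calcium and sodium leak channel genes were bound in daf-2(-) in 5 of 13 cases (ccb-1, itr-1, tag-180, unc-2 and unc-80) and in WT in 1 (unc-2), and other receptors for GABA, glutamate and amines in 3 of 17 (glc-1, glc-4 and unc-49) in daf-2(-) and 0 in WT. Among the 9 genes of these lists bound in daf-2(-) only, ccb-1, a calcium channel beta subunit, had height 94, and the other 8 had heights from 27 (glc-4) to 46 (unc-105). The counts are small and the difference between lists was not tested.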

How the data were processed

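Sample labels give 4 strains of mixed-stage worms at 20 °C, each with a ChIP library and an input library (8 in all). Per the study's methods, reads were trimmed with Cutadapt and aligned to WS230 with Bowtie 0.12.7, and from unique alignments the authors called peaks with MACS 1.4.2 against the input and assigned each peak to the nearest TSS, coding or non-coding. CASAVA 1.8.2 made the read files. In its overview of the datasets, though not in its account of peak calling, the study describes peaks that also occur in the DAF-16-null strain of the same daf-2 genotype as left out. The deposited names call the daf-2(-) list normalized with daf-16(-);daf-2(-) and the WT list normalized with daf-16(-). Whether this means the removal of peaks or a control in peak calling cannot be told from the names. The background level of the DAF-16-null strains was not measured here.

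For each peak the authors deposited the count of tags, the summit height as a pileup signal, the fold enrichment as a ratio over the local background, the FDR as a percent and, for daf-2(-), a MACS score. Height, tags and fold were used as deposited, with no scaling between lists. The deposited distance to the TSS starts at the peak's centre (tolerance 1 bp, met by 100% of the rows). The strain of a list comes from its deposited name and the methods. A table of tag density in bins of 25 bp has 1 value column that could not be tied to a strain, and it was not used. No genome or promoter sequence was used here, so FOXO motifs were not looked for, though this was planned.

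Peaks were called shared when they overlapped by at least 1 bp, and for ratios a WT peak was set against whichever overlapping daf-2(-) peak had the nearest summit. Genes were matched by symbol or sequence name to a RefSeq table of the WBcel235 assembly, used for names only, which matched 98.7% of daf-2(-) peaks and 98.8% of WT peaks. Shares have exact binomial (Clopper-Pearson) 95% intervals, medians exact order-statistic intervals (the range for 8 values or fewer, which falls short of 95% for 5), and tags exact Poisson intervals. Amplified reads are not independent molecules, so intervals of tags and of height ratios cover counting error only. Intervals of shares and medians take genes or peaks as independent draws and serve as a description. With 1 library per strain no p-value was computed. Overlap, pairing and median intervals were tested on simulated data. Members, lists and the rule for named genes, which took in all 15 genes with a peak, were chosen with earlier results of these data known. Alternatives were other overlap rules, limits on fold enrichment and FDR, windows around the TSS, tags in place of height, the summit in place of the centre and genes counted once. Tools were scipy 1.17.1, pandas 2.3.3, numpy 2.4.6 and matplotlib 3.10.9 under Python 3.11.15.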

Additional observations from a re-analysis of the deposited data

How the results depend on the processing

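Of 39 values recomputed under another choice, 4 moved. The other 35 stayed inside the interval of the reported value, or within 1.5 times the reported count. Some of them could not move: each gene had 1 peak, so taking each gene once left the peaks of the set unchanged. Others had wide intervals. The WT share in the 0.5 kb before the TSS was 37.5% by centre, and 12.5% by summit counted as unmoved. Wider windows before the TSS measured another quantity. A change of direction was scored for the paired ratio only, and 0 were found. All 4 values that moved came from a limit of 10 on fold enrichment, which few of these peaks reach. With it, 0% of the 163 genes in daf-2(-) and 1.23% in WT kept a peak (6.42% and 9.15% of all protein-coding genes), 0% of the 2 WT peaks left were shared (60.1% of all WT peaks), and 0 genes were bound in both strains, while for daf-2(-) peaks no share could be given because none was left. Sharing at 5 genes was the same when the overlap had to reach 50% of the shorter peak, when summits had to lie within 100 bp, and at an FDR of 1% or less. These limits could remove no shared peak of the set. Their overlaps were at least 99.3%, their summits at most 68 bp apart and their FDR values at most 0.44%. No analysis of paired replicates was possible because there was 1 ChIP library per strain. Both alternatives planned for the motif search were not run either. With 12 and 8 peaks the intervals of the shares are wide. A gene listed without a peak may have one under the threshold of the peak caller, or one assigned to another gene.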
